A study of Mus musculus with 30 samples.

Results

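The proteasome genes examined here are the 5 genes of the immunoproteasome, Psmb8, Psmb9, Psmb10, Psme1 and Psme2, and the 3 catalytic genes of the constitutive proteasome, Psmb5, Psmb6 and Psmb7. They were chosen by name among the protein-coding genes of a table of 30952 genes, and all 8 were found in it. In experimental autoimmune encephalomyelitis (EAE), a mouse model of multiple sclerosis, immunization with a myelin peptide starts an autoimmune attack on the CNS. Female C57BL/6 mice were immunized with the myelin peptide MOG35-55 and, once they reached a clinical score near 1, were given a RIPK1 kinase inhibitor (GSK'547, 50 mg/kg) or its vehicle (20% Captisol) by oral gavage, BID for 3 days. Microglia (CD11b+CD45intCX3CR1+) and astrocytes (GLAST+CD11b-CD45-CD140a-) were sorted from spinal cord in 4 naive mice, 6 that received vehicle (EAE-vehicle) and 5 that received inhibitor (EAE-RIPK1inh), and each sort gave 1 RNA-seq library, 15 of each cell type. Both EAE groups carried the immunization and the labels give no age of the mice. The study's methods for EAE in this strain also name complete Freund's adjuvant and pertussis toxin. The share of adjuvant, toxin and vehicle in the differences from naive mice was not tested.

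The proteasome degrades ubiquitin-tagged proteins in a barrel-shaped core with catalytic subunits of 3 kinds. In cells exposed to interferons, newly built cores take up Psmb8 (LMP7) in place of Psmb5, Psmb9 (LMP2) in place of Psmb6 and Psmb10 (MECL-1) in place of Psmb7, and such cores are called immunoproteasomes. Psme1 and Psme2 encode the alpha and beta subunits of PA28, an interferon-inducible cap that opens the core. Immunoproteasomes favor the peptides that MHC class I molecules present to CD8+ T cells, and leukocytes hold them without stimulation.

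Of the 8 genes, 4 lie near another in pairs. On chromosome 17, within the MHC, Psmb9 occupies 34181987 to 34187764 on the minus strand and Psmb8 occupies 34197721 to 34201454 on the plus strand, with the peptide transporter gene Tap1 between them. Psmb9 and Tap1 run in opposite directions and share 212 bases, and 9956 bases lie between Psmb9 and Psmb8. On chromosome 14, Psme1 (55578123 to 55581529, plus strand) and Psme2 (55587441 to 55591113, minus strand) are separated by 5911 bases, and Psmb5 lies at 54614119 to 54618022 on the minus strand. Psmb10 is on chromosome 8 (105935735 to 105938444, minus strand), Psmb6 on chromosome 11 (70525367 to 70527858, plus strand) and Psmb7 on chromosome 2 (38588036 to 38644087, minus strand). All positions are those of GRCm38. The deposited annotation marks 6 of the 8 genes, all but Psmb6 and Psme2, as confounded with another gene. The libraries were made without a step that marks strand, so fragments from the shared exons of Psmb9 and Tap1, Psme1 and Emc9, Psmb7 and Nek6, or Psmb8 and Gm20496 cannot be told apart.

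Promoters (250 bases before the RefSeq start to 50 after it, GRCm38.p6) were at hand for 7 of the 8 genes, all but Psmb7, and were searched on both strands for 3 motifs. These were the interferon-stimulated response element (ISRE, 2 GAAA repeats with 2 bases between them), the antioxidant response element bound by NRF factors (ARE, TGACNNNGC) and the CCAAT box. The windows of 30 bases around the matches are given to show where the letters lie in each gene, with the motif, on either strand, in capitals.
Psme1 ISRE read on the other strand, chr14:55578493-55578522, plus strand: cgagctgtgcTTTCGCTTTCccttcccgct
Psmb5 ARE, chr14:54618023-54618052, minus strand: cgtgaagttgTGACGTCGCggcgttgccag
Psmb6 ARE, chr11:70525338-70525367, plus strand: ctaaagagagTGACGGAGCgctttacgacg
Psmb9 CCAAT read on the other strand, chr17:34187321-34187350, minus strand: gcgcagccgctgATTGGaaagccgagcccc
Counted from the start, the ISRE match of Psme1 begins at 10, the ARE matches of Psmb5 and Psmb6 begin at -47 and -9, and the CCAAT match of Psmb9 at -8. No match to these 3 motifs was found in the promoters of Psmb8, Psmb10 and Psme2. Of 32851 mouse promoters of this length, 3.44% held the ISRE letters, 12.4% the ARE letters and 37.4% a CCAAT box, so such matches are common and are given as a description only.

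Values are FPKM on the log2 scale, that is, sequenced fragments relative to exon length and library size, quantile-normalized over the 30 libraries by the authors, so every library holds the same sorted values from 0 to 15.34 and the depth of a library is unknown. Genes without signal in a library hold its lowest values, and between 8710 and 20398 genes in a library of microglia, or 6728 and 22981 in one of astrocytes, lay above them. Under 9000 genes did so in naive microglia library 4, naive astrocyte library 2 and EAE-vehicle astrocyte library 1. Astrocyte markers averaged 6.93 to 8.99 log2 units in astrocyte libraries and 0.94 to 1.88 in microglia libraries. Microglia markers averaged 8.30 to 11.4 in microglia libraries and 0.90 to 3.93 in astrocyte libraries. In microglia libraries the latter were 10.6 to 11.4 in naive, 8.30 to 8.81 in EAE-vehicle and 8.33 to 9.96 in EAE-RIPK1inh mice. Astrocyte markers in astrocyte libraries had group means of 8.74, 7.59 and 8.24 in the same order. Why the markers fell in EAE was not tested. A gene was called, with the cutoff of the study, at a fold change over 1.5 and an unadjusted p under 0.05 from limma, and Benjamini-Hochberg adjusted values over all genes tested are given as well. Oligodendrocyte markers averaged 6.19 to 9.91 in the astrocyte libraries, so the astrocyte sort also held RNA of these genes.

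In healthy spinal cord, microglia already held transcripts of all 5 immunoproteasome genes, and astrocytes held mainly those of the constitutive genes. In the 4 naive astrocyte libraries, Psmb8 was at 0.25, 0.01, 0.00 and 0.00 log2 FPKM, and 1 of these values lay above the library's no-signal stretch. Psmb9 was at 0.00, 0.01, 0.00 and 1.35, again with signal in 1 library, library 4. That library had the highest mean of endothelial markers among the astrocyte libraries (3.62). It also had the highest mean of microglia markers among the naive astrocyte libraries (2.60), and the source of the signal was not tested. Naive microglia held Psmb8 at 7.83, 7.68, 7.40 and 8.02 and Psmb9 at 5.28, 5.63, 6.16 and 6.34. Every microglia value of both genes lay above every astrocyte value (adjusted p = 7.11e-17 for Psmb8 and 2.94e-10 for Psmb9 from limma).

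Other members were expressed in both cell types. Psmb10 was at 6.75, 6.86, 6.50 and 8.11 in naive microglia and at 5.41, 4.71, 5.64 and 4.98 in naive astrocytes, without overlap, 1.87 log2 units apart (SE 0.32, adjusted p = 9.69e-05 from limma). Psme1 and Psme2 were called higher in microglia, by 1.55 and 1.25, but their groups overlapped and neither passed adjustment (adjusted p = 0.0799 and 0.0937 from limma). The call of Psme1 was lost without naive astrocyte library 2 (1.04) and that of Psme2 without naive microglia library 1 (0.88). Among the constitutive genes, Psmb7 was the one called lower in microglia, at 6.07, 5.34, 4.84 and 4.19 against 6.74, 6.89, 6.79 and 6.83 in astrocytes, a difference of -1.70 (SE 0.38, adjusted p = 0.00186). Psmb6 was 0.89 higher in microglia without overlap (adjusted p = 0.0585), and Psmb5 was not called, at -1.72 (SE 0.98), but it was called without naive astrocyte library 2 (-2.79) or naive microglia library 3 (-2.65), and it was at -0.27 without naive microglia library 4, in which it was listed at 0. In all, 6 of 8 genes were called higher in naive microglia, where 10.0% of all genes were, and 1 of 8 was called lower, where 9.64% were. Bulk values of this kind cannot tell fewer cells of a type from less RNA per cell.

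Ranked by level per length, naive astrocytes held Psmb6 (7.47 ± 0.21 log2 FPKM, SD, n = 4), Psmb7 (6.81 ± 0.06) and Psmb5 (6.06 ± 2.16) above all induced genes. The ranges of Psmb6 and Psmb7 did not overlap, and the range of Psmb5, which reached down to 2.82 in library 2, overlapped with its neighbours. In naive microglia the order ran from Psmb6 (8.36 ± 0.47) through Psmb8 (7.73 ± 0.26), Psmb10 (7.05 ± 0.72), Psme2 (6.40 ± 1.31), Psme1 (6.27 ± 0.73) and Psmb9 (5.85 ± 0.49) to Psmb7 (5.11 ± 0.79), and every neighbouring pair overlapped. Psmb5 in naive microglia was at 4.79, 5.43 and 7.16 in libraries 1 to 3 and listed at 0, without signal, in library 4.

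**Figure D1:**
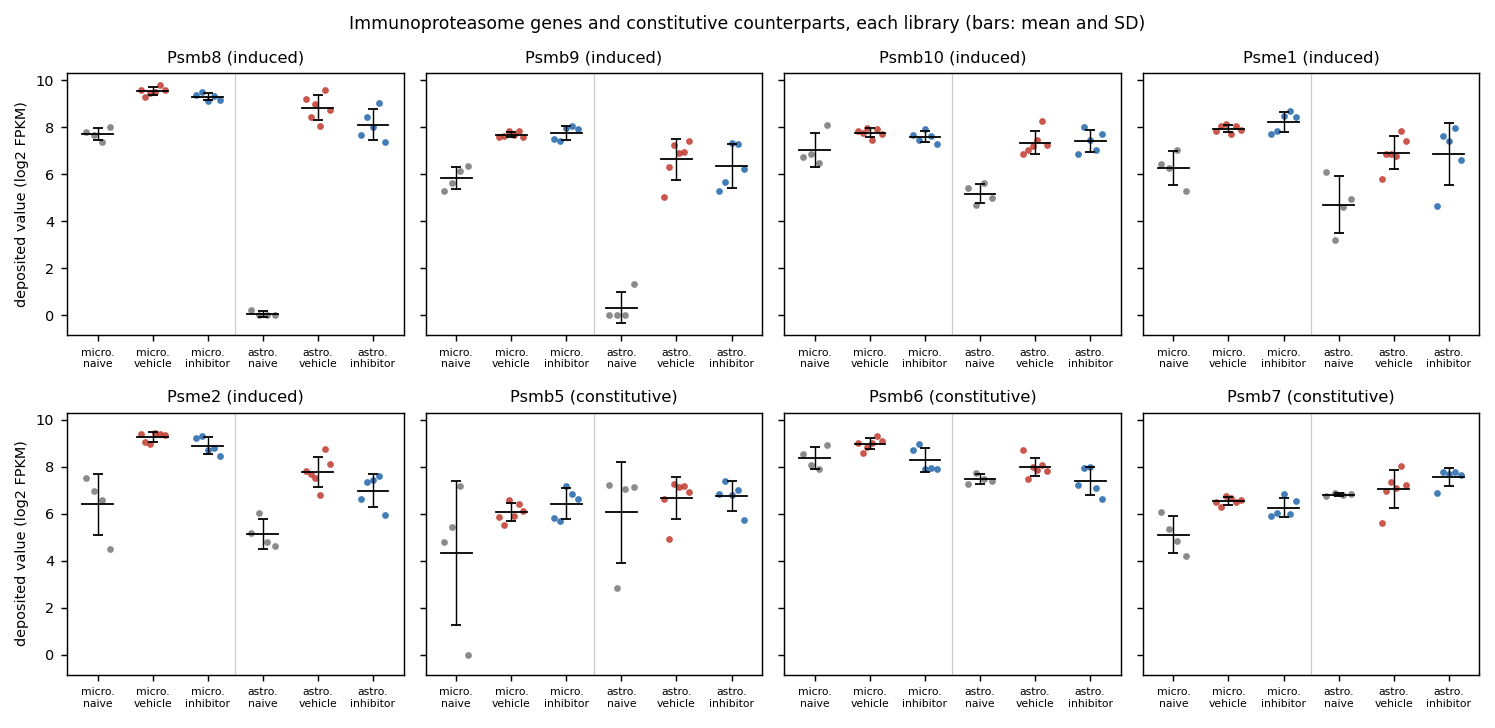
Values of the 8 genes (log2 FPKM, vertical axis) in each of the 30 libraries, by cell type and group (horizontal axis; points are libraries, bars the mean and SD). Psmb8 and Psmb9 sit at or near 0 in naive astrocytes and between 5.04 and 9.60 in every EAE astrocyte library, while the constitutive genes overlap between naive and EAE-vehicle astrocytes.

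To see what EAE changed in astrocytes, EAE-vehicle was compared with naive. All 5 induced genes were called higher and none of the 3 constitutive genes was called, where 2.69% of all genes were called higher, and 4 of the 5 passed adjustment, where 0.342% of all genes did. Psmb8 was at 9.21, 8.44, 9.00, 8.08, 9.60 and 8.73 in the EAE-vehicle libraries (8.84 ± 0.55, SD, n = 6), so the lowest of them lay far above the highest naive library. The difference was 8.78 log2 units (SE 0.37, adjusted p = 8.89e-09 from limma), and its p was the smallest among 30718 genes. Psmb9 was at 5.04, 6.31, 7.26, 6.90, 6.98 and 7.42, with all 6 libraries above the 4 naive ones and a difference of 6.31 (SE 0.57, adjusted p = 3.17e-05). The naive values of both genes are at or near 0. The sizes of these differences, their SE and their p therefore depend on the unknown offset added before the logarithm. No linear fold is given.

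The induced genes with signal in naive astrocytes rose by less. Psmb10 went from 4.71 to 5.64 in naive libraries to a lowest value of 6.88, a median of 7.24 and a highest value of 8.27 in EAE-vehicle libraries. Its groups did not overlap, and it was 4.50-fold higher (log2 2.17, SE 0.34, adjusted p = 0.00602 from limma). Psme2 was at 5.16, 6.05, 4.78 and 4.61 in naive libraries and at 7.80, 7.71, 7.51, 6.79, 8.74 and 8.11 in EAE-vehicle libraries. Its groups did not overlap either, and it was 6.17-fold higher (log2 2.63, SE 0.43, adjusted p = 0.00901). Psme1, its partner in PA28, was at 6.12, 3.20, 4.61 and 4.96 and then at 5.82, 6.88, 6.88, 6.77, 7.83 and 7.42, so the highest naive library stood above the lowest EAE-vehicle library. Psme1 was called (log2 2.21, SE 0.65) but did not pass adjustment (adjusted p = 0.229). Groups of 4 of the 5 induced genes did not overlap, where 1.02% of all genes were higher without overlap, and each of these 4 had an exact two-sided permutation p of 0.00476, the smallest that 210 splits of 4 and 6 mice allow.

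The constitutive genes of astrocytes were not called. Psmb5 was at 7.24, 2.82, 7.06 and 7.12 in naive and at 6.64, 4.91, 7.27, 7.12, 7.20 and 6.92 in EAE-vehicle libraries, with a difference of 0.61 (SE 0.77, adjusted p = 0.867 from limma), which became -0.46 without naive library 2. Psmb6 differed by 0.52 (SE 0.30, adjusted p = 0.834) and Psmb7 by 0.24 (SE 0.37, adjusted p = 0.915), and the ranges overlapped for both. The 95% intervals of the 3 differences ran from -1.02 to 2.25, from -0.13 to 1.17 and from -0.56 to 1.03, so rises of about the size seen for Psmb10 lie outside the intervals of Psmb6 and Psmb7 but not of Psmb5. The median difference was 2.63 over the induced genes and 0.52 over the constitutive genes, against 0.03 over all genes tested.

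In microglia, where the induced genes were present before EAE, EAE-vehicle against naive called 7 of the 8 genes higher, all but Psmb5, where 6.13% of all genes were called higher, and 5 passed adjustment, where 2.37% of all genes did. Psmb8 was at 9.58, 9.31, 9.47, 9.52, 9.80 and 9.58, above all 4 naive libraries, and 3.52-fold higher (log2 1.81, SE 0.14, adjusted p = 2.70e-06 from limma). Psmb9 was at 7.61, 7.62, 7.84, 7.68, 7.84 and 7.58, also above every naive library, and 3.58-fold higher (log2 1.84, SE 0.21, adjusted p = 9.26e-05). Psmb10, at 7.83, 7.76, 7.96, 7.47, 7.95 and 7.70, overlapped with naive library 4 and differed by 0.72 (SE 0.26, adjusted p = 0.176). Without naive library 4, the microglia library with the fewest genes above the no-signal stretch, the difference in Psmb10 was 1.08, and without naive library 3 it was 0.54 and was not called.

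Both PA28 genes rose in microglia. Psme1 was at 6.46, 6.27, 7.05 and 5.29 in naive and at 7.86, 8.04, 8.14, 7.70, 8.07 and 7.91 in EAE-vehicle libraries, 3.22-fold higher (log2 1.69, SE 0.29, adjusted p = 0.00282 from limma). Psme2 was at 7.50, 6.98, 6.60 and 4.52 and then at 9.37, 9.07, 8.97, 9.43, 9.39 and 9.34, 7.27-fold higher (log2 2.86, SE 0.42, adjusted p = 0.001). Neither gene overlapped between the groups. Naive library 4 held the lowest value of both, and without it the differences were 1.36 and 2.24.

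In microglia 2 of the 3 constitutive genes were called higher as well. Psmb7 was at 6.51, 6.27, 6.77, 6.65, 6.49 and 6.59 in EAE-vehicle libraries, above all naive ones, and 2.71-fold higher (log2 1.44, SE 0.30, adjusted p = 0.0129 from limma). Psmb6 was at 8.54, 8.06, 7.91 and 8.93 in naive and at 9.00, 8.59, 8.85, 9.02, 9.31 and 9.10 in EAE-vehicle libraries, with overlap. It was called at 1.54-fold (log2 0.62, SE 0.26) without passing adjustment (adjusted p = 0.279), and it was no longer called without naive library 2 (0.52), naive library 3 (0.47), EAE-vehicle library 5 (0.55) or EAE-vehicle library 6 (0.60). Psmb5 differed by 1.72 (SE 0.96, adjusted p = 0.495), by 0.27 without the naive library in which it was listed at 0, and by 2.66 without naive library 3, where it was called. The 5 genes Psmb8, Psmb9, Psme1, Psme2 and Psmb7 were without overlap between the groups, where 2.93% of all genes were, and each had the smallest exact two-sided permutation p that the design allows, 0.00476. The median difference was 1.81 over the induced and 1.44 over the constitutive genes, against -0.02 over all genes tested.

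**Figure D2:**
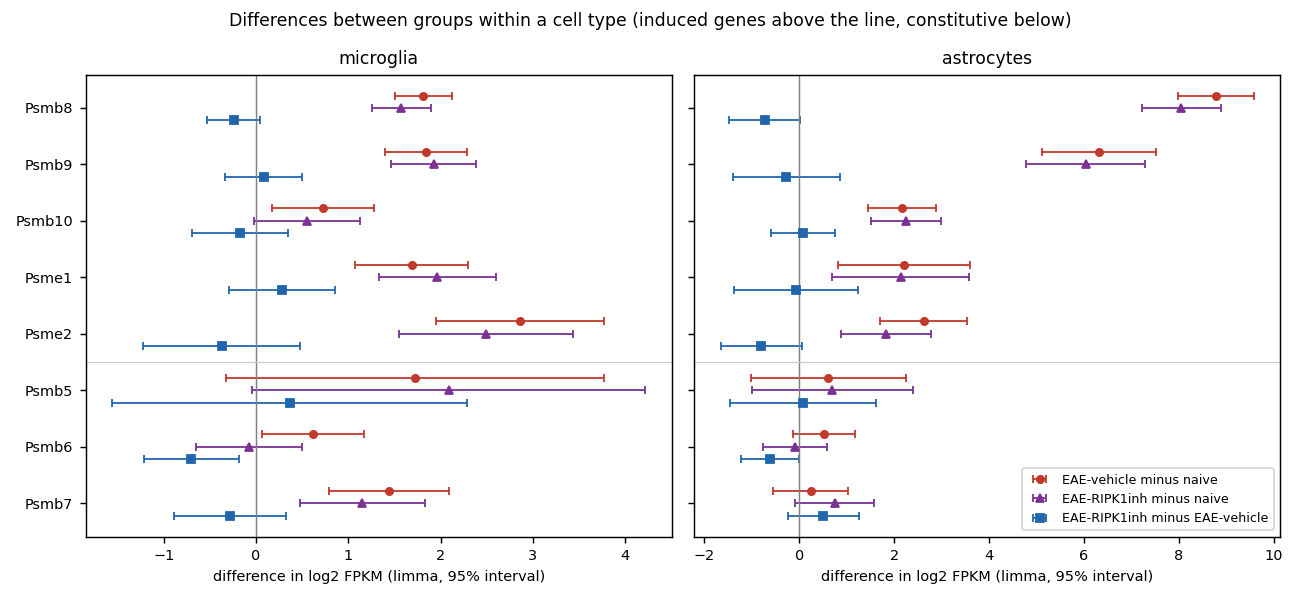
Differences in log2 FPKM between groups for the 8 genes within microglia (left) and astrocytes (right), with 95% intervals from limma (horizontal axis); color and symbol mark the comparison, and the 2 panels have different scales. The intervals of all 5 induced genes lie above 0 for EAE-vehicle minus naive in both cell types, and those for EAE-RIPK1inh minus EAE-vehicle include 0 for all genes but Psmb6.

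Whether EAE changed these genes to a different degree in the 2 cell types was tested as an interaction over all 30 libraries. The libraries were taken as independent, although both cell types came from the same groups of mice. The effect of EAE was smaller in microglia than in astrocytes for Psmb8, by 6.96 log2 units (SE 0.38, adjusted p = 2.00e-12 from limma), the smallest p of all 30952 genes, and for Psmb9, by 4.47 (SE 0.59, adjusted p = 9.39e-05). Psmb10 was called in the same direction (difference -1.44, SE 0.42, adjusted p = 0.0988), and Psmb7 in the other (1.20, SE 0.49, adjusted p = 0.371), a call that was lost without naive microglia library 4 (0.90), with library weights (0.73) and in libraries with at least 9000 genes above the no-signal stretch (0.58). The PA28 genes did not differ in their response beyond the error (Psme1 -0.52, 95% interval -2.02 to 0.97, and Psme2 0.24, interval -1.01 to 1.48). In all, 3 of 8 genes were called with the smaller effect in microglia, where 3.71% of all genes were, and 1 of 8 with the larger, where 4.97% were. For Psmb8 and Psmb9 the naive astrocyte values at or near 0 enter this difference, its SE and its p too.

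In EAE-vehicle mice, too, most induced genes were called higher in microglia. The difference was smaller than in naive mice for Psmb8 and Psmb9. It was also smaller for Psmb10 (0.42, not called, against 1.87) and Psme1 (1.02 against 1.55). For Psme2 it was larger (1.49 against 1.25). Psmb8 held the highest mean of the 8 genes in EAE-vehicle microglia (9.54 ± 0.16, SD, n = 6) and in EAE-vehicle astrocytes (8.84 ± 0.55, SD, n = 6), overlapping in range with the next gene in either. Between the cell types, Psmb8 still differed by 0.70 (SE 0.24, adjusted p = 0.0482 from limma), Psme2 by 1.49 (SE 0.38, adjusted p = 0.00742) and Psmb6 by 0.99 (SE 0.25, adjusted p = 0.00623), each higher in microglia. Without EAE-vehicle astrocyte library 4 the difference in Psmb8 was 0.55 and under the fold cutoff. Psmb9 and Psme1 were called at 1.04 and 1.02 without passing adjustment (adjusted p = 0.0637 and 0.163), and the call of Psme1 was lost when any of 7 single libraries was left out. In all, 5 of 8 genes were called higher in EAE-vehicle microglia, where 12.4% of all genes were. Psmb7, lower in naive microglia, differed by -0.50 in EAE-vehicle mice and was not called, though it was at -0.79 and called without EAE-vehicle astrocyte library 1. With inhibitor 5 of 8 genes were called higher in microglia, where 11.7% of all genes were, and 1 of 8, Psmb7 (-1.29, SE 0.34, adjusted p = 0.00844 from limma), was called lower, where 10.0% were.

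The question of the treatment arm is whether RIPK1 inhibition changed these genes in EAE. In microglia 1 of 8 genes was called, lower, where 0.701% of all genes were called lower and 1.06% higher. This gene was Psmb6, at 8.71, 8.95, 7.89, 7.93 and 7.92 in EAE-RIPK1inh against 9.00, 8.59, 8.85, 9.02, 9.31 and 9.10 in EAE-vehicle libraries, so libraries 1 and 2 lay within the vehicle range and the other 3 below it. The difference was -0.70 (SE 0.24, adjusted p = 0.930 from limma, exact two-sided permutation p = 0.0238). The differences of the induced genes from vehicle were at most 0.37 log2 units in size. The largest, Psme2 at -0.37, was -0.60 and called with library weights. Psmb8 was at 9.37, 9.51, 9.12, 9.34 and 9.18, a difference of -0.24 (95% interval -0.53 to 0.05, exact two-sided permutation p = 0.0368), and Psmb9 was at 7.49, 7.43, 7.96, 8.05 and 7.95, a difference of 0.08 (interval -0.33 to 0.50). The groups of all 8 genes overlapped, but libraries 3 to 5 stood apart from libraries 1 and 2 in more genes than Psmb6. In libraries 3 to 5, Psme1 (8.49, 8.69 and 8.43), Psmb5 (7.17, 6.83 and 6.64) and Psmb9 lay above the vehicle range. Psme2 lay below it in these libraries (8.70, 8.80 and 8.44). In libraries 1 and 2, Psmb9 lay below the vehicle range. Psmb8, Psmb10 and Psmb7 did not split in this way, and the cause was not tested.

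In EAE astrocytes the inhibitor gave 1 call among the 8 genes, again Psmb6 and again lower, where 1.18% of all genes were called lower and 1.84% higher. Psmb6 was at 7.22, 7.95, 8.00, 7.11 and 6.61 against 8.70, 7.49, 7.98, 7.86, 8.09 and 7.82, with overlap and a difference of -0.61 (SE 0.29, adjusted p = 0.840 from limma). Its call was lost in 12 of the 15 fits that left out a single library (it held without EAE-vehicle library 2 and without EAE-RIPK1inh libraries 2 and 3), and without EAE-vehicle library 1, which had under 9000 genes above the no-signal stretch, the difference was -0.47. Psmb8 was at 7.69, 8.46, 8.03, 9.04 and 7.38 with inhibitor, a difference of -0.73 (95% interval -1.47 to 0.02, adjusted p = 0.840), and libraries 2 and 4 lay within the vehicle range and the other 3 below it. It was called without EAE-vehicle library 2 (-0.81), EAE-vehicle library 4 (-0.88) or EAE-RIPK1inh library 4 (-0.96). Psme2 was at 6.63, 7.34, 7.42, 7.59 and 5.93, a difference of -0.80 (interval -1.66 to 0.07, adjusted p = 0.840), with all 5 libraries under the vehicle mean, and it was called without EAE-vehicle library 4 (-0.99) or EAE-RIPK1inh library 4 (-0.95). Psmb9, Psmb10 and Psme1 differed by -0.27, 0.08 and -0.08, and Psme1 spread from 4.65 in library 1 to 7.96 in library 4. None of the 8 genes passed adjustment in either cell type, where 0.00345% of all genes in microglia and 0% in astrocytes did, and the interaction test of the inhibitor effect between cell types called 0 of 8, where 3.15% of all genes were called, with adjusted p-values from limma of 0.948 or more.

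Compared with naive mice, inhibitor-treated mice with EAE held 4 of the 5 induced genes higher in microglia and all 5 in astrocytes. These values share the naive libraries with the comparisons above and are given beside them. In microglia Psmb8, Psmb9, Psme1 and Psme2 were 1.57, 1.92, 1.97 and 2.49 log2 units above naive, against 1.81, 1.84, 1.69 and 2.86 with vehicle, and all 4 passed adjustment, where 1.81% of all genes did (adjusted p from 2.29e-05 to 0.00545 from limma). Psmb10 was 0.55 above naive (SE 0.27, adjusted p = 0.423), with overlap, and was not called, but it was called at 0.90 without naive library 4 and at 0.62 without EAE-RIPK1inh library 5. Psmb7 was called too (1.15, adjusted p = 0.0735), which made 5 of 8 genes called higher, where 5.35% of all genes were. In astrocytes the 5 induced genes were called, at 8.05 for Psmb8, 6.04 for Psmb9, 2.25 for Psmb10, 2.14 for Psme1 and 1.83 for Psme2, where 1.98% of all genes were called higher, and the first 3 passed adjustment, where 0.124% of all genes did (adjusted p = 5.49e-08, 9.60e-05 and 0.0104 from limma). Psmb8, Psmb9, Psmb10 and Psmb7 were higher without overlap, where 0.785% of all genes were, and Psmb7, at 0.74 (SE 0.39, adjusted p = 0.897), was not called, but was called without EAE-RIPK1inh library 1 (0.91) or without EAE-vehicle library 1 (0.74).

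The balance of each pair of transcripts was taken within a library as the induced minus the constitutive level on the log2 scale and per length. For the chymotrypsin-like pair, Psmb8 minus Psmb5 was -6.98, -2.82, -7.06 and -7.12 in naive astrocytes. In EAE-vehicle astrocytes it was 2.57, 3.54, 1.74, 0.96, 2.41 and 1.81. It was thus negative in every naive and positive in every EAE-vehicle library. For the caspase-like pair, Psmb9 minus Psmb6 went from -7.25, -7.74, -7.47 and -6.06 to -3.66, -1.19, -0.72, -0.96, -1.12 and -0.40, and Psmb6 stayed above Psmb9. For the trypsin-like pair, Psmb10 minus Psmb7 went from -1.33, -2.17, -1.15 and -1.85 to 1.27, 0.06, -0.14, 0.37, 0.25 and 0.01. All 3 pairs were without overlap between naive and EAE-vehicle astrocytes, as was the mean of the 5 induced minus the mean of the 3 constitutive genes, at -3.69 ± 0.47 (SD, n = 4) in naive and 0.27 ± 0.38 (SD, n = 6) in EAE-vehicle libraries. Psmb8 and Psmb9 each had no signal in 3 of the 4 naive astrocyte libraries. The naive values of their pairs and of the mean therefore depend on the unknown offset added before the logarithm.

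In microglia the balance shifted less. The mean of the induced minus the mean of the constitutive genes was 0.30, 0.41, 0.11 and 2.08 in naive libraries, where the last is the library with Psmb5 at 0, and 1.25 ± 0.17 (SD, n = 6) in EAE-vehicle libraries, with overlap because of that library alone. Psmb8 was above Psmb5 in every microglia library, by 0.23 to 8.02 in naive and 2.86 to 3.77 in EAE-vehicle mice, and Psmb10 was above Psmb7 in every microglia library. Psmb9 minus Psmb6 was the pair whose groups did not overlap, at -2.51 ± 0.62 (SD, n = 4) in naive and -1.29 ± 0.24 (SD, n = 6) in EAE-vehicle microglia. With inhibitor the overall balance was 1.37 ± 0.18 (SD, n = 5) in microglia and -0.08 ± 0.47 (SD, n = 5) in astrocytes, and both overlapped with vehicle. For the PA28 subunits, Psme1 minus Psme2 was at -0.13 ± 0.88 in naive and -1.31 ± 0.33 in EAE-vehicle microglia, and at -0.43 ± 1.68 and -0.84 ± 0.64 in astrocytes, with overlap in both cell types.

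**Figure D3:**
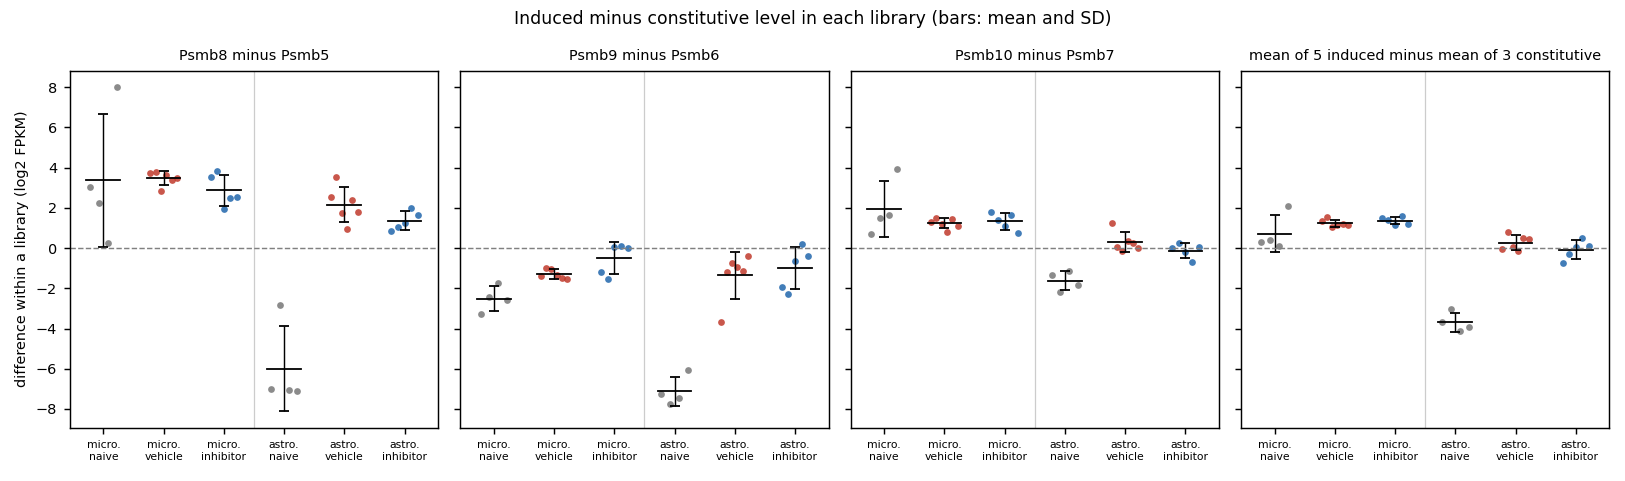
Induced minus constitutive level within each library (log2 FPKM, vertical axis) for the 3 catalytic pairs and for the group means, by cell type and group (points are libraries, bars the mean and SD, the dashed line equal levels). In astrocytes the Psmb8 pair lies at -7.12 to -2.82 in naive mice and above 0 in every EAE library. The Psmb9 pair is higher in EAE-vehicle than in naive mice without reaching 0.

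Markers of some other cells rose in the astrocyte libraries together with the induced genes. Others did not. Erythrocyte marker means were 6.91 in naive and 4.65 in EAE-vehicle astrocyte libraries. Endothelial marker means were 1.28 and 0.49, with naive library 4 at 3.62. Neuron marker means were 4.09 and 4.72. Of 9 T cell markers, 8 are in the table, and their summed level was 1.34 to 7.80 log2 units in naive, 7.48 to 45.1 in EAE-vehicle and 6.68 to 41.9 in EAE-RIPK1inh astrocyte libraries, with Cd2, Cd3d and Lck without signal in any naive library. The 9 monocyte and neutrophil markers summed to 0.85 to 9.65, 16.6 to 40.7 and 12.6 to 45.3, with Ly6g without signal in all 15 libraries. The 10 microglia markers summed to 8.96 to 26.0, 21.3 to 39.3 and 22.1 to 32.2, and the 7 oligodendrocyte markers to 43.3 to 51.7, 44.7 to 69.4 and 54.7 to 64.4. In microglia libraries the T cell marker mean was 0.11 to 0.87 except for 2.01 in EAE-RIPK1inh library 3, and the monocyte and neutrophil markers summed to 18.3 to 49.7 in naive and 24.0 to 53.9 in EAE-vehicle mice.

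EAE-vehicle library 4 and EAE-RIPK1inh library 1 had T cell marker means of 0.94 and 0.84, within the naive range of 0.17 to 0.98. They held Psmb8 at 8.08 and 7.69 and Psmb9 at 6.90 and 5.30. Their means of other markers lay above every naive astrocyte library. These were 3.21 and 2.94 for microglia (naive highest 2.60) and 1.84 and 1.47 for monocytes and neutrophils (naive highest 1.07). For oligodendrocytes they were 8.62 and 8.25 (naive highest 7.39). In a fit of only the astrocyte libraries with a T cell marker mean of at most 2, a choice made after the data were seen that left 1 library of each EAE group, assumed to vary like the naive libraries, the vehicle difference was 8.01 for Psmb8, 6.56 for Psmb9 and 2.26 for Psmb10, 2.05 for Psme1 and 1.64 for Psme2, and Psme1 with inhibitor was at the naive level (-0.07). These values rest on 1 library of each EAE group and are given as a description. The part of T cell, monocyte, microglia and oligodendrocyte RNA in the values of the induced genes was not tested.

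**Figure D4:**
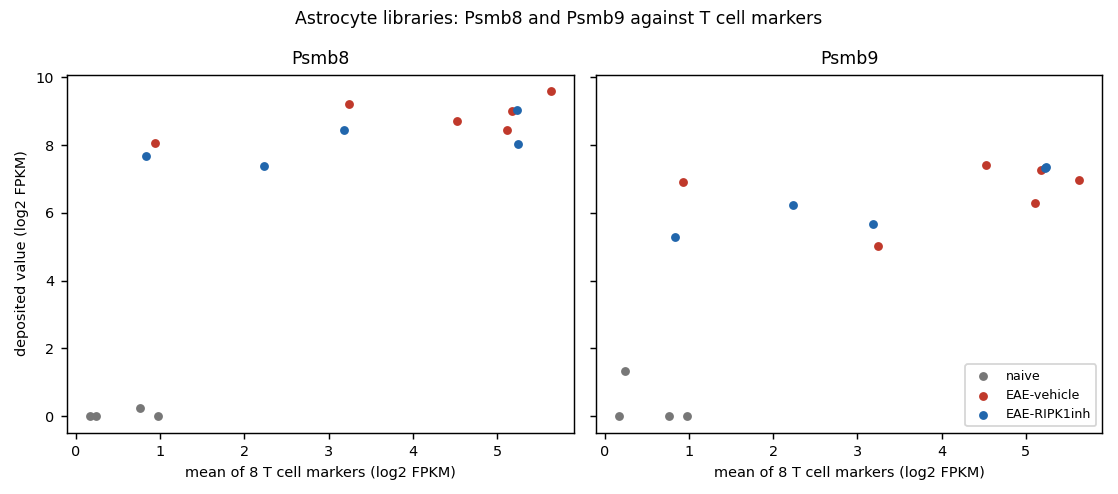
Psmb8 (left) and Psmb9 (right) in the 15 astrocyte libraries (log2 FPKM, vertical axis) against the mean of 8 T cell markers in the same library (log2 FPKM, horizontal axis), colored by group. The EAE libraries with T cell marker means of 0.94 and 0.84 hold Psmb8 at 8.08 and 7.69, and the 4 naive libraries, at 0.17 to 0.98, hold it at 0.25 or less. Those EAE libraries exceed every naive library in the marker means of microglia, of monocytes and neutrophils, and of oligodendrocytes.

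The other proteasome genes were taken from lists. Of 11 other core subunit genes tested, 8 were called higher in EAE-vehicle microglia and 0 lower, 3 of them past adjustment, with a median difference of 0.74, where 6.13% of all genes were called higher, 5.86% lower and 2.37% higher past adjustment. Among them Psma5 rose by 1.48 (SE 0.22, adjusted p = 0.000948 from limma), while Psma4 was called at 1.04 (adjusted p = 0.0969). In astrocytes 4 of the 11 were called higher, Psma7 (1.52), Psmb4 (1.00), Psmb2 (0.96) and Psma6 (0.69), none past adjustment, with a median of 0.67, where 2.69% of all genes were called higher and 4.01% lower. The same shares of all genes stand beside the counts of the other lists. Of 19 genes of the regulatory particle that recognizes ubiquitin, 5 were called higher in microglia, led by Sem1 (1.58, adjusted p = 0.0019) and Psmd13 (1.56, adjusted p = 0.044), and 3 in astrocytes, Psmd4 (1.00), Psmc5 (0.81) and Psmc1 (0.75), none past adjustment. Of 8 assembly chaperones, Pomp, which places the catalytic subunits in the growing core, rose by 1.18 in microglia (SE 0.25, adjusted p = 0.0136) and Psmg4 by 1.52 (adjusted p = 0.00314), and 0 were called in astrocytes. Psmf1, the inhibitor PI31, was called in microglia (2.16, adjusted p = 0.167), and had no signal in 1 naive library.

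Part of the genes that take the peptides onward rose in both cell types. Of 11 peptide loading genes, 6 were called higher in EAE-vehicle microglia, where 6.13% of all genes were (5 past adjustment, against 2.37% of all genes, median 0.90), led by Tap1 (2.35, SE 0.43, adjusted p = 0.0051 from limma) and the class I heavy chain H2-K1 (2.10, SE 0.25, adjusted p = 0.000135). In astrocytes 6 were called higher, where 2.69% of all genes were, and 2 lower, where 4.01% were (4 higher past adjustment, against 0.342% of all genes, median 2.15). H2-D1 rose there by 4.46 (SE 0.69, adjusted p = 0.00602) and Tap1 by 3.52 (SE 0.72, adjusted p = 0.0407), from naive values that were as low as 0 for Tap1. The protein folding genes Pdia3 (-1.08) and Canx (-0.68) were the 2 called lower, neither past adjustment.

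Among 11 transcriptional regulators of these genes, Nlrc5, the transactivator of MHC class I genes, rose by 4.27 in microglia (adjusted p = 2.16e-06) and was called in astrocytes at 2.65 (adjusted p = 0.119), where 2 naive libraries had no signal. Irf1 rose by 4.38 in astrocytes (SE 0.87, adjusted p = 0.0368) and Irf8 was called there at 3.40 (adjusted p = 0.0586), each without signal in 2 naive libraries. In microglia 4 regulators were called higher, where 6.13% of all genes were, and 2 lower, where 5.86% were, Nfkb1 (-1.03) and Irf8 (-0.76), neither past adjustment. Of the 4 interferon receptor genes, 2 were called in microglia, both lower, against the same 5.86% of all genes, and Ifngr1 fell by 2.00 (SE 0.32, adjusted p = 0.00179) and Ifnar2 fell by 1.09 (SE 0.27, adjusted p = 0.0317), and 0 of the 4 were called in astrocytes. With inhibitor against vehicle, 2 of the 67 genes of all these lists (2.99%) were called in microglia, where 1.06% of all genes were called higher and 0.701% lower, Psma7 (-0.59) and Ifnar2 (0.79), neither past adjustment, and 0 in astrocytes.

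**Figure D5:**
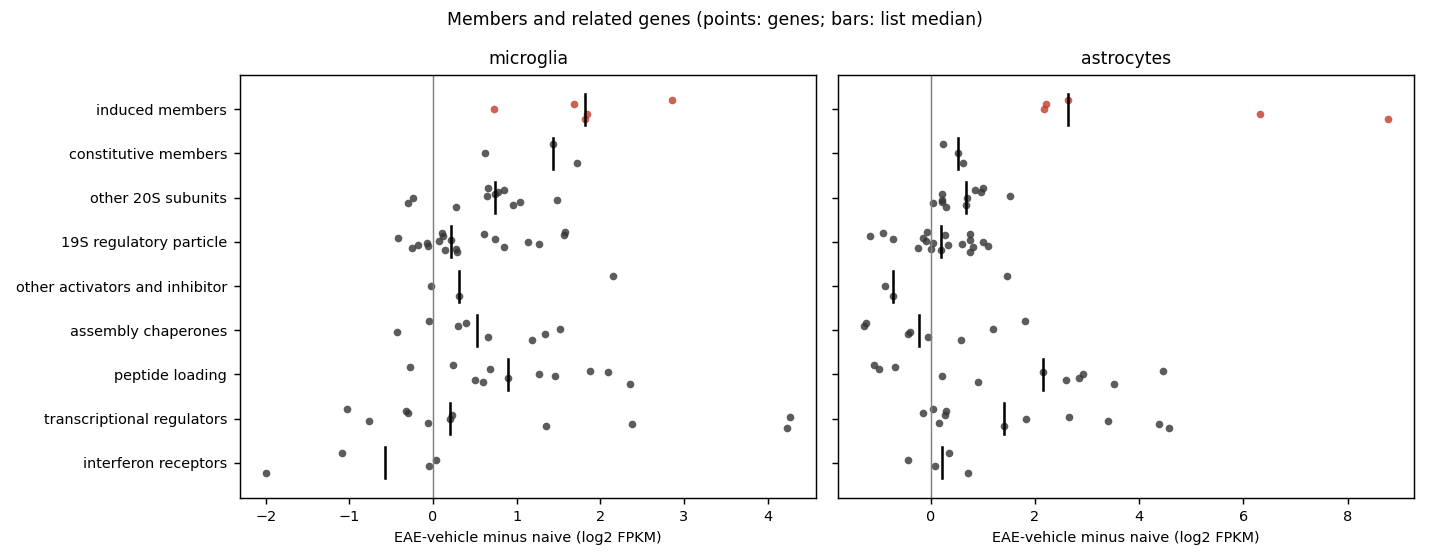
Differences between EAE-vehicle and naive (log2 FPKM, horizontal axis) for the induced and constitutive genes and for the related gene lists (rows; points are genes, vertical bars the list median) in microglia (left) and astrocytes (right). In astrocytes the induced genes (median 2.63) stand beside the peptide loading genes (median 2.15), and the other core subunits have a median of 0.67.

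The genes whose level over the 15 libraries of a cell type ran closest to the mean of the 5 induced genes are named here as a description. In astrocytes they were the guanylate-binding protein genes Gbp2 (Pearson's r 0.984), Gbp6 (0.981) and Gbp10 (0.975), the GTPase gene Gm4951 (0.979) and B2m (0.976), the light chain of MHC class I, among 7212 genes searched. In microglia they were the interferon-inducible gene Ifi211 (0.992), the glutathione peroxidase gene Gpx3 (0.992), Cd74 (0.991), the MHC class II invariant chain, Il18bp (0.989), which binds interleukin 18, and Gbp2 (0.987), among 9230 genes. Over the 11 EAE libraries alone r was 0.477 to 0.700 for the 5 astrocyte genes and 0.379 to 0.709 for the 5 microglia genes. All points share the normalization, and the 15 libraries of a cell type fall into naive and EAE. Within the set, Psmb10 was the member least like the mean of the other 4 induced genes in microglia (r 0.496), while in astrocytes it reached 0.921 and Psme1 was lowest at 0.782.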

How the data were processed

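Per the labels, mRNA was captured with oligo(dT) beads from sorted cells of 30 samples, each from 1 mouse. The authors processed the reads with OmicSoft Array Studio 10.1.1.3 and deposited log2 FPKM values, quantile-normalized over the 30 libraries; aligner, build and the offset added before the logarithm are not given in the sources used here, and gene positions match GRCm38. The depth is unknown, and no counting intervals are given. Quantile normalization gives all libraries one distribution, so a shift of all genes cannot be seen. Genes identical in all libraries of a fit were dropped, which left 28958 genes for microglia and 30718 for astrocytes. The 3 groups of a cell type were fitted together with limma 3.58.1 (R 4.3.3, eBayes with trend), without pairing, though the study names a paired test, since the labels pair no samples. Cell types and interactions came from a fit of all 30 libraries. That fit took the libraries as independent, although both cell types were sorted from the same groups of mice. Which microglia and astrocyte libraries came from 1 mouse is not given in the labels. Each gene was also tested with an exact two-sided permutation of the difference in means. Members, lists and tests were chosen with earlier results of these data known. Named genes are all 8 members, the called genes of each list (where over 4, the largest 2 rises and 2 falls) and the 5 genes per cell type most alike the mean of the induced genes. One of these genes and one of the searched motifs are not reported here. The fits were tested on simulated data. Alternatives were scaling to the median, a filter at a mean log2 of 1, log2(linear value + 1), no variance trend, library weights, a replicate block, each library left out and 2 sets of libraries chosen after seeing the data.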

Additional observations from a re-analysis of the deposited data

Results flagged for a closer look

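By a rule that flags about 1 in 20 groups of independent normal values, 1 library stood apart from the others in 5 of 48 groups. These were naive astrocyte library 1 for Psmb8 (0.25, with the other 3 at 0.01 or less), naive astrocyte library 4 for Psmb9 (1.35), naive astrocyte library 2 for Psmb5 (2.82, with the other 3 at 7.06 to 7.24), EAE-vehicle astrocyte library 2 for Psmb5 (4.91) and EAE-RIPK1inh astrocyte library 1 for Psmb7 (6.89, with the other 4 at 7.66 to 7.79). Naive astrocyte library 2 was among the 3 libraries with under 9000 genes above the no-signal stretch. The 48 groups share libraries, and most naive astrocyte libraries had no signal for Psmb8 and Psmb9. The 5 flags can therefore not be set against the rate of the rule.

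The effect of EAE differed between the cell types for 4 genes by the interaction test of limma. As microglia minus astrocytes it differed by -6.96 log2 units for Psmb8 and -4.47 for Psmb9, both past adjustment, and by -1.44 for Psmb10 and 1.20 for Psmb7, which did not pass it.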

How the results depend on the processing

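Of 2600 differences of single genes under the alternatives, 2475 kept direction and side of the cutoff, 45 lost their call, 35 gained one and 45 changed sign, 1 of the last from a called value. These include fits that left out a library of a group outside the comparison, where the difference itself could not change. The share kept is therefore not a measure of how firm the results are. For the inhibitor against vehicle in astrocytes (1 gene called), the count was 0 with scaling to the median, 0 with the filter, 2 with the offset, 2 without the trend, 0 in libraries with at least 9000 genes and 0 in those low in T cell markers, and 0 to 2 with a library left out; in microglia it was 2 with library weights, which added Psme2 (-0.60). In astrocytes low in T cell markers, where each EAE group held 1 library, so that these calls rest on single EAE libraries, 3 of 5 genes stayed called for vehicle and 3 of 5 for inhibitor against naive, EAE-vehicle microglia against astrocytes gave 3 of 5 (3 to 6 with a library left out, 3 without EAE-vehicle astrocyte library 4), and the interaction of the inhibitor gave 2 against 0, there from 1 astrocyte library against 1, which cannot show a difference between the conditions (0 to 1 with a library left out). The cause was not tested.

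Sign changes were as follows. With at least 9000 genes, Psmb6 was 0.11 and 0.0035 for inhibitor against naive in microglia and astrocytes, Psmb5 was -0.46 and -0.38 for vehicle and inhibitor against naive in astrocytes, Psmb10 was -0.017 for inhibitor against vehicle, and Psme2 was -0.69 in the EAE interaction. With library weights Psmb10 was -0.23 and Psmb5 -0.32 for inhibitor against vehicle in astrocytes, and Psme2 was -0.41 in the EAE interaction, where scaling put Psmb6 at -0.034. Low in T cell markers, Psmb10 was -0.56, Psmb5 -0.26 and Psmb7 -0.19 for inhibitor against vehicle, Psme1 -0.067 against naive, and Psmb10 0.39 and Psme2 -0.21 in the inhibitor interaction. With a library left out, the ranges were -0.25 to 0.11 for Psmb6 in inhibitor against naive microglia, -0.46 to 1.01 for Psmb5 in vehicle and -0.38 to 1.09 in inhibitor against naive astrocytes, -0.25 to 0.10 for Psmb6 there, and for inhibitor against vehicle astrocytes -0.069 to 0.26 for Psmb10, -0.27 to 0.34 for Psmb5 and -0.35 to 0.48 for Psme1. In the EAE interaction they were -0.39 to 0.60 for Psme2, -0.054 to 0.29 for Psmb6 and -0.34 to 2.19 for Psmb5, and in the inhibitor interaction -0.28 to 0.069 for Psmb6 and -0.20 to 0.63 for Psme1.

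The labels do not say whether replicate numbers pair the samples, and the correlations do not settle it. Same-numbered samples correlated by -0.04 to 0.12 over 15 pairs of cell types, 6 of them best with their own number. Over 26 pairs of conditions they correlated by -0.17 to 0.24, 10 of them best. Between inhibitor and naive microglia, numbers 1 and 3 reached 0.240 and 0.242, against 0.054 and 0.048 for the best other number. Numbers 2 and 4 were at -0.025 and -0.108 there. The replicate block called 3065 genes against 3473 for vehicle against naive microglia, left 0 genes of the 8 called for inhibitor against vehicle in astrocytes, lost Psmb6 in microglia (0.60), and put Psme1 in astrocytes at 0.022 for inhibitor against vehicle.

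Depth is unknown, low values depend on the offset, and RNA of other cells in the astrocyte sort is not separated from that of astrocytes.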
